A study of Caenorhabditis elegans with 2 samples.

Results

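The cytosolic ribosomal protein genes of Caenorhabditis elegans were examined for binding of MDL-1 at the fourth larval stage. They were chosen by name, as the protein-coding genes of the WBcel235 annotation called rpl- (large subunit) or rps- (small subunit). This gave 78 of 19973 nuclear protein-coding genes, 47 of the large and 31 of the small subunit. Chromatin immunoprecipitation and sequencing (ChIP-seq) against MDL-1 had been made on whole L4 larvae of strain OP355, of mixed sex. The genotype is unc-119(tm4063) III with the insertion wgIs355, which targets mdl-1, so both samples carry the unc-119 mutation. There was 1 group with 2 biological replicates and no second genotype, stage or treatment. The labels name MDL-1 as the target, but a note on both samples names KLU-1 as the protein with the GFP-FLAG tag. Whole animals were used, so a region cannot be assigned to a tissue.

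Ribosomal proteins and ribosomal RNA form the large subunit, which joins amino acids, and the small subunit, which reads the messenger RNA. MDL-1 is a Mad-type helix-loop-helix leucine zipper protein that pairs with the Max-like MXL-1. In vertebrates and flies, Myc-Max pairs promote ribosome production, and in vertebrates Mad-Max pairs bind the same E-box, CACGTG, and repress. In C. elegans most messenger RNAs receive a spliced leader, so an annotated 5' end often marks the splice site beside the start codon and not the place where transcription begins. Among the members the 5' end lay a median of 6 bp from a start codon, and 65 of 78 had it within 20 bp.

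The deposited data are lists of regions on genome build ce11. Pooled reads, replicate 1 and replicate 2 each have a list of 30000 candidate regions, and the 1115 strongest pooled regions form the authors' optimal list. The caller's signal has its own scale in each list, and its highest value was 701 in the pooled reads, 436 for replicate 1 and 275 for replicate 2. Regions are therefore given by their rank within a list, with 1 as the strongest. A gene was counted where a summit fell in its promoter window, which reaches 1000 bp upstream and 200 bp downstream of each annotated 5' end. The lists carry no read totals, so depth is unknown, and the exact (Clopper-Pearson) 95% intervals below cover the counting of genes or regions only. With 1 group no test between samples was possible, and each share is set beside the same share of other genes.

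Of the 78 genes, 12 had an optimal peak in the promoter window, which is 15.4% (interval 8.21% to 25.3%), beside 3.17% of all protein-coding genes. These 12 were rps-1, rps-12, rps-18, rps-21, rps-23 and rps-24 of the small subunit and rpl-1, rpl-3, rpl-14, rpl-15, rpl-20 and rpl-35 of the large subunit. Each of the 12 best summits lay upstream of the 5' end, as did 572 of those of 622 other genes with an optimal peak (92.0%). The share was 12.8% of the large subunit genes (interval 4.83% to 25.7%) and 19.4% of the small subunit genes (interval 7.45% to 37.5%), and the intervals overlap. The median pooled rank of members with a region was 3239 in the large and 2621 in the small subunit.

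The 4 strongest peaks stood apart from the other 8 in rank. The gene rps-1 encodes a protein of the small subunit (chrIII:4475918-4476876, WBGene00004470). Its peak at chrIII:4475597-4475727 ranked 70 in replicate 1, 85 in replicate 2 and 70 in the pooled list, with a pooled signal of 185. The summit lay 266 bp upstream. For rps-12 (chrIII:5679298-5680187, WBGene00004481), the peak at chrIII:5678938-5679333 ranked 138 in replicate 1, 80 in replicate 2 and 110 in the pooled list, with its summit 162 bp upstream. The gene rpl-15 encodes a large subunit protein (chrIV:653480-654576, WBGene00004427). Its peak at chrIV:654856-654970 ranked 131 in replicate 1, 207 in replicate 2 and 158 in the pooled list, 346 bp upstream. The protein of rpl-3 reaches towards the peptidyl transferase centre, where peptide bonds form. The gene lies at chrIII:3867854-3869587 (WBGene00004414), and its peak at chrIII:3867505-3867631 ranked 157 in replicate 1, 405 in replicate 2 and 197 in the pooled list, 284 bp upstream. All 4 were within the first 405 regions of both replicate lists. The regions at rps-1, rpl-15 and rpl-3 were narrow (131, 115 and 127 bp), whereas the other 9 had the usual pooled width of 396 bp.

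The next peaks had pooled ranks from 490 to 1070, and their agreement between the replicates varied. The peak of rpl-1, a protein of the stalk beside the tRNA exit site, ranked 354 in replicate 1 and 934 in replicate 2, and lay 275 bp upstream at chrI:2876385-2876780. That of rpl-35, whose protein sits by the exit tunnel, ranked 571 and 821 in replicates 1 and 2 and lay 411 bp upstream at chrIII:7854525-7854920. Both were thus among the 1115 strongest regions of each replicate.

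The peak of rpl-14 ranked 497 in replicate 1 and 3627 in replicate 2 (311 bp upstream, chrI:9688688-9689083), the widest gap among the 12. Those of rps-24 (676 and 1975, 314 bp upstream, chrIV:385375-385770) and rps-23, a protein of the decoding centre (869 and 1821, 297 bp upstream, chrIV:12391152-12391547), were also beyond rank 1115 in replicate 2. These 3 genes were therefore within that rank in replicate 1 only. The peak of rpl-20 ranked 996 and 1021 (293 bp upstream, chrIV:4749873-4750268). That of rps-18 ranked 1218 and 804 (619 bp upstream, chrIV:14824862-14825257). That of rps-21 ranked 1168 and 1895 (298 bp upstream, chrIII:7189731-7190126) and was beyond rank 1115 in both replicates. Of the 12 genes, 10 were within rank 1115 in replicate 1, 8 in replicate 2 and 7 in both.

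**Figure D1:**
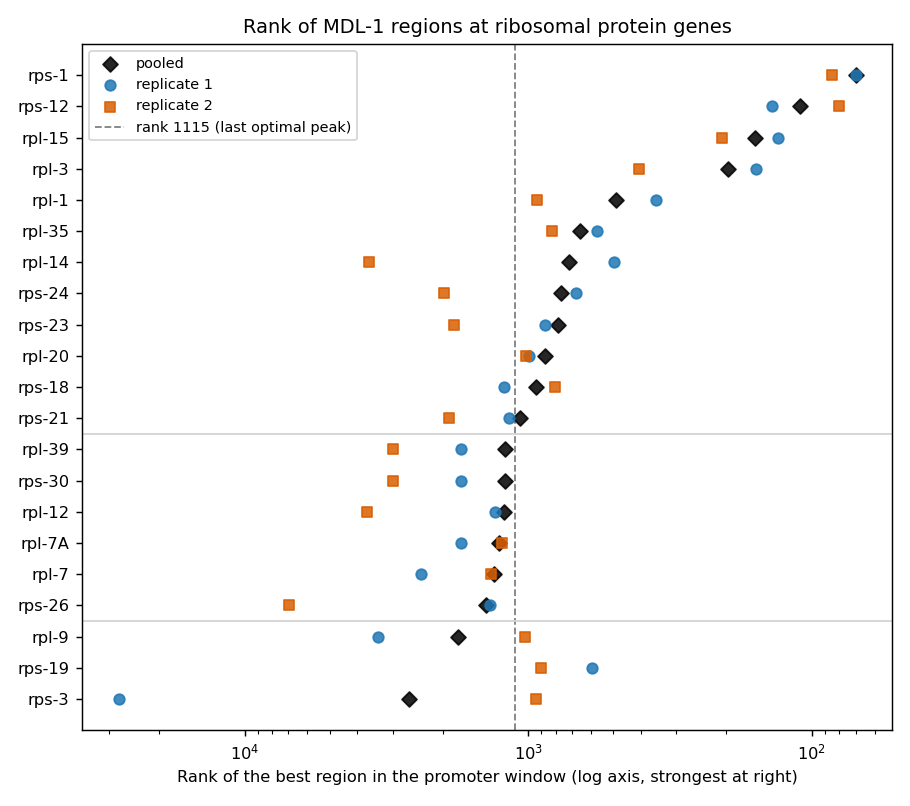
Rank of the best region in the promoter window (x axis, log scale, strongest at the right) for the 12 genes with an optimal peak, the next 6 by pooled rank, and 3 genes within rank 1115 in a replicate list only, with 1 symbol each for the pooled list, replicate 1 and replicate 2. The 4 strongest genes sit apart at the right in all lists, and rps-19 has both replicate symbols inside the dashed line at rank 1115 and no pooled symbol.

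Many members followed just below the threshold. The lowest optimal signal was 48.2. Inside it the last member was rps-21, with a signal of 49.4. Outside it came rpl-39 and rps-30, which share 1 region of signal 46.3 (pooled rank 1204), then rpl-12 (46.0, rank 1216), rpl-7A (45.1, rank 1271), rpl-7 (44.2, rank 1320) and rps-26 (42.9, rank 1410). The protein of rpl-39 lines the exit tunnel, that of rpl-12 forms part of the stalk base, and that of rps-26 lies by the messenger RNA exit channel. Within pooled rank 2230, which is double the number of optimal peaks, 29 of the 78 genes had a summit (37.2%, interval 26.5% to 48.9%), beside 6.17% of all protein-coding genes. Within rank 5000 there were 37 (47.4%), beside 11.7% of other genes. The members with a region had a median rank of 3028, and the 7913 other genes with a region had 10665.

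Over the whole pooled list, 63 members had a candidate region (80.8%, interval 70.3% to 88.8%), beside 39.9% of all protein-coding genes. In replicate 1 there were 67 (85.9%), beside 40.2% of all genes, and in replicate 2 there were 56 (71.8%), beside 40.5%. All 3 lists held a region for 52 members and no list did for 10, counts that were not made for other genes. The 10 members without one in any list were rpl-2, rpl-6, rpl-10, rpl-18, rpl-25.1, rpl-25.2, rpl-27, rpl-30, rpl-36.A and rps-2, 9 of the large subunit and 1 of the small. By subunit, 36 of 47 large subunit genes (76.6%, interval 62.0% to 87.7%) and 27 of 31 small subunit genes (87.1%, interval 70.2% to 96.4%) had a pooled region, and these intervals overlap.

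**Figure D2:**
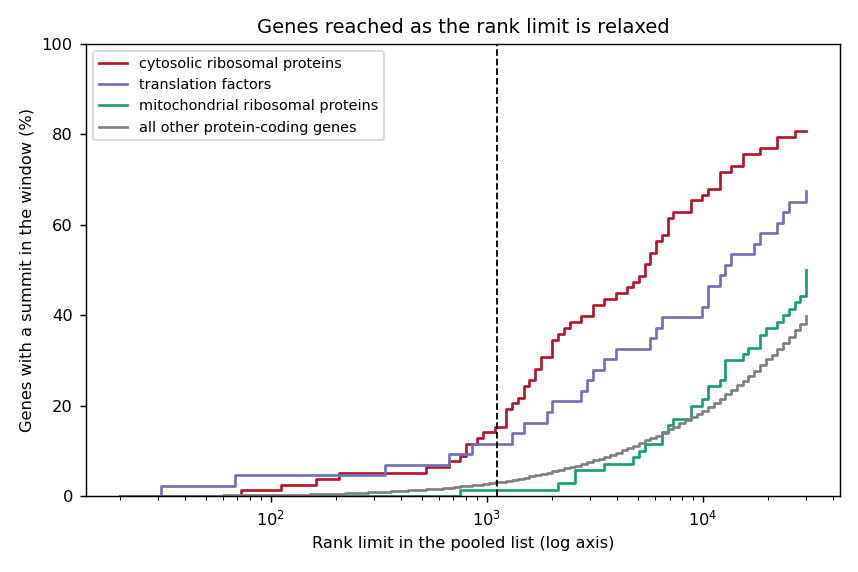
Share of genes with a summit in the promoter window (y axis, %) as the rank limit in the pooled list is relaxed (x axis, log scale), for cytosolic ribosomal proteins (n = 78), translation factors (n = 43), mitochondrial ribosomal proteins (n = 70) and all other protein-coding genes (n = 19895). The dashed line is rank 1115, where the line of the cytosolic ribosomal proteins stands at 15.4%, and at rank 2230 it stands at 37.2%.

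The paired copies differed among themselves. The gene rpl-11.1 had a region of pooled rank 2056 (8812 in replicate 1 and 1130 in replicate 2, 271 bp upstream), and its paralog rpl-11.2 on the X chromosome had one of rank 5005 (4050 in replicate 1 and 6383 in replicate 2, 381 bp upstream). Together with the protein of rpl-5 (pooled rank 2007), their proteins bind the smallest ribosomal RNA of the large subunit. Neither rpl-25.1 nor rpl-25.2 had a region. The gene rpl-41.2 had a region of pooled rank 6206, whereas rpl-41.1 had one in replicate 1 only (rank 11683). Both rpl-24.1 and rpl-24.2 (pooled rank 1639, 97 bp upstream) are members by name, although rpl-24.2 is related to an assembly factor of the large subunit in yeast. The choice by name may thus include a gene whose protein is not part of the finished ribosome.

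The gene rps-19 had a strong region in both replicates and none in the pooled window. In replicate 1 a region at chrI:9625878-9626267 ranked 593, with a signal of 47.2 and its summit 277 bp upstream. In replicate 2 a region at chrI:9625865-9626274 ranked 903, with a signal of 22.3 and its summit 274 bp upstream. The pooled list used here held no region that overlaps either. Its nearest summit lay 498 bp downstream of the 5' end, beyond the window, with rank 9053. Of the 1115 strongest regions of replicate 1, 718 overlapped one of the 1115 strongest of replicate 2, and this was the single one of the 718 without an overlapping pooled region. Had rps-19 been counted, 13 members would stand above the threshold. The protein of rps-19 belongs to the head of the small subunit.

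Among the members with a region in both replicate lists (n = 55), Spearman's rho of the ranks was 0.586 and Pearson's r of the log2 ranks was 0.688. These are descriptions, since the genes share the same 2 libraries and some share a region. Replicate 1 gave the better rank in 37 genes and replicate 2 in 18, which was not counted for all other genes with a region in both lists. For the 12 members with an optimal peak, rho was 0.615, and these counts were 10 and 2. Over 619 other genes with an optimal peak and a region in both lists, rho was 0.578, and the counts were 349 and 268. Some members were strong in 1 replicate alone. The gene rps-3, whose protein lines the messenger RNA entry channel, ranked 27715 in replicate 1 and 937 in replicate 2 (pooled rank 2621). Its best summits differ in place, 674 bp upstream in a coding exon in replicate 1 and 354 bp upstream in replicate 2. The gene rpl-9 ranked 3381 and 1028 (pooled rank 1773). The gene rps-13, chosen after its values were seen, went the other way, with 1383 in replicate 1 and 20762 in replicate 2. By the 1115 strongest regions of a single list, 11 members were reached in replicate 1, beside 3.11% of all genes, and 11 in replicate 2, beside 3.03%.

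**Figure D3:**
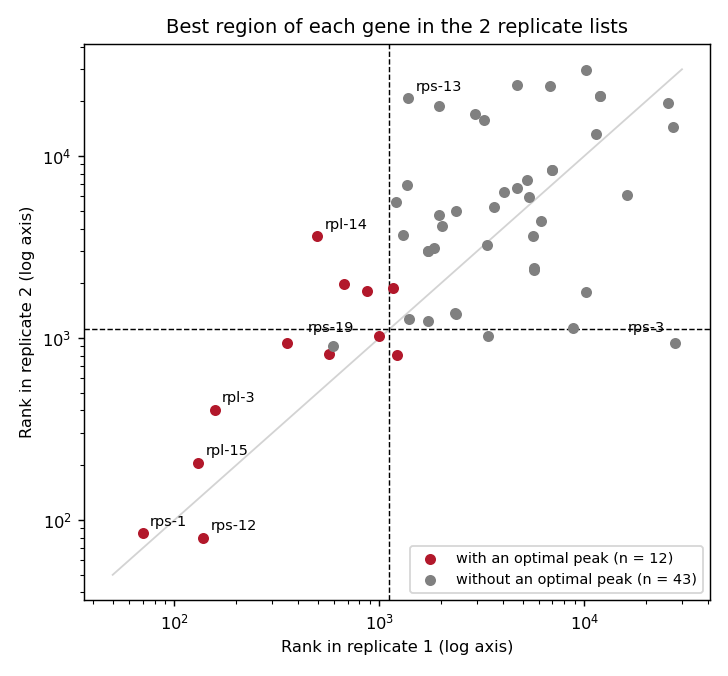
Rank of the best region of each gene in replicate 1 (x axis) and replicate 2 (y axis), both on log scales, for the 55 members with a region in both lists, with the 12 that have an optimal peak in red and the other 43 in grey. Dashed lines mark rank 1115, the diagonal marks equal ranks, and rps-3 and rps-13 lie far from it on opposite sides.

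By the span between quartiles, positions of regions spread less at ribosomal protein genes than at other genes. The best pooled summit was a median of 298 bp upstream of the 5' end over 63 members, with quartiles at 434 and 226 bp. The full range ran from 812 bp upstream (rps-11) to 127 bp downstream (rpl-37). The span between the quartiles was 208 bp in members and 503 bp in the 7913 other genes with a region, whose median was 315 bp upstream. For the 12 with an optimal peak the quartiles were 322 and 282 bp upstream, a span of 40.3 bp, and the range was 619 to 162 bp. The span was 400.5 bp in 622 other genes with an optimal peak (median 294 bp upstream). The summits of the replicates were a median of 63 bp apart over the 55 members with a region in both (range 1 to 636 bp, 31 within 100 bp). At the 12 with an optimal peak the median gap was 15.5 bp, with a range of 1 to 102 bp. Over 619 other genes with an optimal peak and a region in both replicates the median gap was 35 bp. The summit was intergenic in 11 of the 12 and in 61 of all 77 pooled regions in member windows (not counted for other regions). At rps-18 it was in an annotated 5' UTR of the neighbouring gene sec-61.A. No member had an optimal summit between the edge of the window and 2000 bp upstream or 500 bp downstream.

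**Figure D4:**
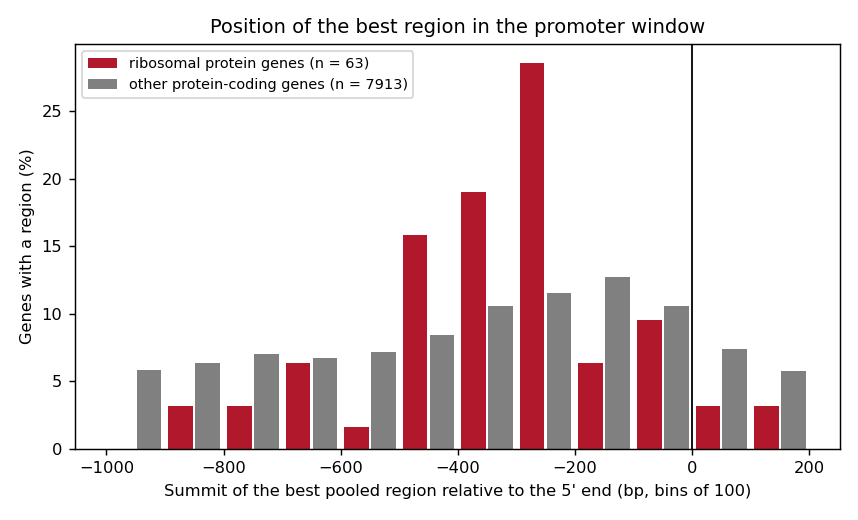
Position of the best pooled summit relative to the nearest 5' end (x axis, bp in bins of 100, negative upstream) as a share of the genes with a region (y axis, %), for ribosomal protein genes (n = 63, red) and other protein-coding genes (n = 7913, grey). The highest red bar, from 300 to 200 bp upstream, holds 28.6% of the members with a region, and the grey bar there holds 11.5% of the other genes.

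Some promoters were shared. Of the 12 optimal regions, 7 lay in the window of a second gene as well (58.3%, interval 27.7% to 84.8%). Of 541 other optimal promoter regions, 106 lay in windows of more than 1 gene (19.6%, interval 16.3% to 23.2%). The 12 were picked through member genes, whereas the 541 were counted once per region. A region in several windows is more likely to be picked through a gene. These shares are therefore not alike, and no difference is drawn from them. The second genes were ifet-1 beside rps-1 (502 bp upstream of its 5' end), ska-3 beside rps-12 (131 bp), K11H12.8 beside rpl-15 (468 bp), Y71F9AL.9 beside rpl-1 (349 bp), dpm-3 beside rps-23 (237 bp), Y17G9B.5 beside rpl-20 (169 bp) and sec-61.A beside rps-18. The gene ifet-1 encodes a translational repressor that binds the cap-binding protein, ska-3 a kinetochore protein, dpm-3 a subunit of an enzyme of glycosylation and sec-61.A the channel that takes new proteins into the endoplasmic reticulum. At rps-12, rps-23, rpl-20 and rps-18 the summit was nearer to a 5' end of the second gene than to that of the ribosomal protein gene. Such a summit cannot be assigned to 1 of the pair. The upstream neighbour was divergent in 52 of 78 members (66.7%), beside 42.1% of 19895 other genes. Of the 52 members with a divergent neighbour 9 had an optimal peak, as had 3 of the 24 with a neighbour on the same strand. Optimal peaks were not counted by neighbour for other genes, so no difference by neighbour is drawn from these counts.

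In 3 divergent pairs both genes were members, and 2 of these pairs had a shared pooled region. The pair rpl-39 and rps-30 shared the region of pooled rank 1204, 346 bp from the first and 153 bp from the second. The pair rpl-36 and rps-14 shared one of rank 3028, 256 bp and 407 bp upstream. The pair rpl-24.1 and rps-10 had none in the pooled windows. Each replicate list held a region in the windows of both genes (rank 11950 in replicate 1 and 21352 in replicate 2), but these were separate regions with summits 567 bp apart. Below the optimal list, the region of rpl-9 was also 311 bp upstream of lpd-7, whose yeast and human relatives take part in ribosome assembly. Small nucleolar RNA genes, which guide changes to ribosomal RNA, lay within 500 bp of 7 of the 77 summits (9.09%, interval 3.73% to 17.8%). The share was 0.707% of all 30000 pooled summits and 3.23% of the 1115 optimal ones. Both pooled regions of rps-12 are among the 7 and lie near the same such gene, so the 7 are not independent. No share was counted for other regions in promoter windows.

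By chromosome, the 12 genes were 5 of 18 members on III, 5 of 17 on IV and 2 of 23 on I, with none of 10 on II, 8 on V and 2 on X. Over all genes the shares with an optimal peak were 4.39% on III, 2.44% on IV, 3.06% on I, 2.84% on II, 2.12% on V and 5.35% on X.

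Sequence at the summits was examined because the E-box and the repeat GAGAGA are common at optimal peaks. Within 50 bp of the summit, CACGTG was found in 1 of 12 optimal member regions (rpl-14) and in none of the 65 member regions below the optimal list. Over all 77 this is 1.30% (interval 0.0329% to 7.02%), beside 19.3% of 1103 other optimal regions and 3.57% of all pooled regions. GAGAGA was found in 1 of the 12 (rps-1) and in 13.8% of the 65 (interval 6.53% to 24.7%), beside 36.8% of other optimal regions and 8.71% of pooled ones. The variant CACGCG was in 1 of the 12 (rps-1), beside 10.3% of other optimal regions. GCGTGG was in 1 of the 12 (rpl-35), TTTTTT in 1 (rps-23) and TATAAA in none, beside 5.08%, 19.5% and 5.80% of other optimal regions. The interval around 1 of 12 runs from 0.211% to 38.5% and includes the share of other optimal regions for each motif found in 1 of the 12. Median G and C content was 50.5% in the 12 windows, 38.6% in the 65 and 48.5% in other optimal regions. Motifs were sought on both strands.

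A different hexamer recurred in these windows. All 2080 hexamers, merged with their reverse complements, were counted in the 12 windows after the data were seen, and 11 were in 5 or more. First came ACCGTA (reverse complement TACGGT), in 6 of 12 windows, beside 2.36% of other optimal regions and 2.58% of all pooled regions. ACACTC, with the reverse complement GAGTGT, was also in 6, beside 132 of 1103 other optimal regions and 3.65% of pooled regions. Several of the others overlap them, such as CGGTAA (5 windows) and ACGGTA (5). Because these 12 windows chose the hexamers, the counts in them are given as a description. Both were in the windows of rps-1, rpl-15, rpl-3, rps-23, rpl-20 and rps-18. The summit windows, reaching 50 bp to each side, are shown for 5 of these and for rps-12, the strongest without the hexamer. They were read from the WBcel235 reference (ce11) on the strand of the ribosomal protein gene, 5' to 3', with TACGGT in capitals. Their positions are chrIII:4475602-4475702 (plus strand) for rps-1, chrIV:654872-654972 (minus) for rpl-15, chrIII:3867520-3867620 (plus) for rpl-3, chrIV:4750021-4750121 (minus) for rpl-20, chrIV:12391300-12391400 (minus) for rps-23 and chrIII:5679086-5679186 (plus) for rps-12.
rps-1: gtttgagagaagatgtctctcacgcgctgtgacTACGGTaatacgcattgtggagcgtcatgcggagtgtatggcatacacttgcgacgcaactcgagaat
rpl-15: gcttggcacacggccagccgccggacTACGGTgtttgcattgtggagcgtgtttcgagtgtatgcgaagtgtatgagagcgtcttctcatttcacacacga
rpl-3: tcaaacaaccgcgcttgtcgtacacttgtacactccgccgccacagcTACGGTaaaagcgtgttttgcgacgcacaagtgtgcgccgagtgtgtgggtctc
rpl-20: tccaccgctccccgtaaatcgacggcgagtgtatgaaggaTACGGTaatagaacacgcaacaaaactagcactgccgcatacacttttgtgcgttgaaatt
rps-23: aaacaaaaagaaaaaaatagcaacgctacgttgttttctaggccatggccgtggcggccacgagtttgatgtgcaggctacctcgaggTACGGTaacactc
rps-12: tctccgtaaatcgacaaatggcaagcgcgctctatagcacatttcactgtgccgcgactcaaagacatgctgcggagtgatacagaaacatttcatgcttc

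The shared letters went beyond the hexamer. Windows of rps-1 and rpl-15 shared the 14 bases gcattgtggagcgt just downstream of it, although the genes are on different chromosomes. Windows of rps-23 and rps-18 shared the 16 bases aggtacggtaacactc, on opposite strands relative to the genes, and those of rps-12 and rpl-20 shared the 12 bases ccgtaaatcgac. In the windows the hexamer lay over the summit at rpl-3, 5 bp from it at rpl-20, 12 bp at rps-1, 19 bp at rpl-15, 27 bp at rps-18 and 38 bp at rps-23.

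The promoters of the other members, which had no part in choosing the hexamer, held it too. In the 500 bp upstream of the outermost 5' end, ACCGTA or its complement was in 29 of the 66 members without an optimal peak (43.9%, interval 31.7% to 56.7%), beside 13.8% of 19895 other protein-coding genes (interval 13.3% to 14.3%) and 16.1% of the 622 other genes with an optimal peak. Median G and C content was 33.5% in the 66 promoters and 33.8% in those of other genes. Mitochondrial ribosomal protein genes had it in 15.7% of 70 and translation factor genes in 23.3% of 43. Over all members, 53.2% of large subunit promoters and 35.5% of small subunit promoters held it. It was in 8 of the 15 promoters without a pooled region and in 21 of the 51 with a pooled region but no optimal peak. Of the 36 members with it 28 had a pooled region (median rank 2301), and of the 42 without it 35 had one (median rank 3028). The 36 include 7 members with an optimal peak and the 42 include 5, and the windows of these members chose the hexamer. The medians are therefore not independent of that choice, and no difference in rank is drawn from them. The hexamer had 36 distinct genomic sites in member promoters. One site, between the divergent genes rpl-24.1 and rps-10, lies in both their promoters and is counted for each gene here and among the 29 promoters. Over the resulting 37 pairs of gene and site, the median distance was 286 bp upstream (quartiles 367 and 220 bp). It was 298.5 bp over the 30 of members without an optimal peak. Over 3105 sites in other genes it was 253 bp (quartiles 376 and 141 bp). Of the 37, 26 read ACCGTA on the strand of the gene and 11 read TACGGT. Among members with an optimal peak, rpl-1, rpl-3, rpl-15, rpl-20, rps-1 and rps-23 read TACGGT and rpl-14 read ACCGTA. Most sites of members without an optimal peak read ACCGTA. The same promoters of members without an optimal peak held no CACGTG (0 of 66, interval up to 5.44%), as was the case for translation factors (0 of 43, interval up to 8.22%), beside 8.65% of other genes. ACACTC was in 27.3% of the 66, beside 15.7% of other genes and 26.2% of the 622 other genes with an optimal peak. Of the hexamers found in 5 windows, AGTGTA (6.06%, beside 17.7% of other genes) and AAGTGT (24.2%, beside 28.7%) were rarer in the 66. The rest were more frequent there, such as CGGTAA (15.2%, beside 11.5%) and ACGGTA (22.7%, beside 12.9%).

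**Figure D5:**
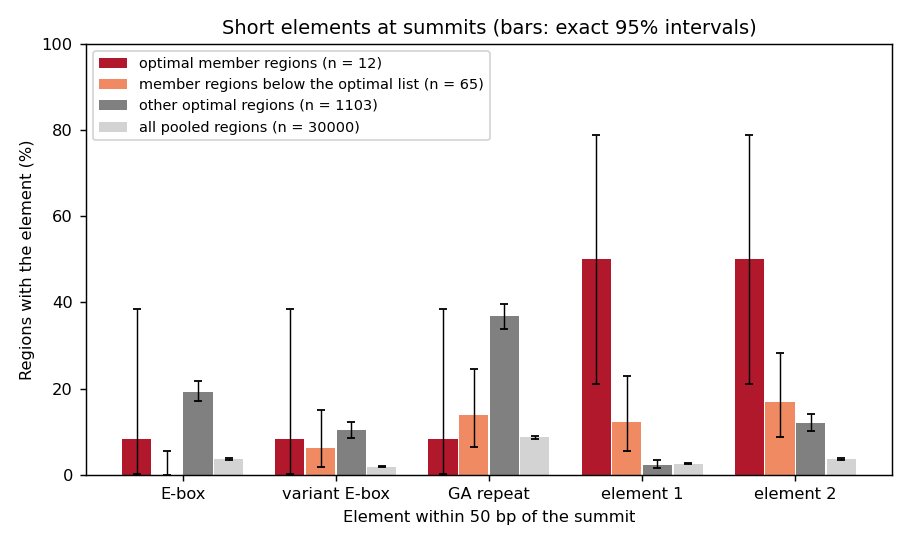
Share of regions (y axis, %) with a short element within 50 bp of the summit, for 12 optimal member regions, 65 member regions below the optimal list, 1103 other optimal regions and all 30000 pooled regions, with exact 95% intervals. The bars of the E-box and the GA repeat are lower in both kinds of member region than in other optimal regions, with wide intervals for the 12, and elements 1 and 2, ACCGTA and ACACTC, were chosen from the 12 regions in the first bars.

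Other genes of protein synthesis gave a mixed picture. Ribosomal proteins that carry other names had no optimal peak in any of 6 genes. Of these, rla-0 (pooled rank 2391, 212 bp upstream) and rla-2 (4376, 226 bp) encode acidic stalk proteins, and ubl-1 (5209, 212 bp) encodes a ubiquitin-like fusion with a small subunit protein. Neither rla-1 nor rack-1 had a pooled region, and ubq-2 had none in any list. Of 43 translation factor genes, 5 had an optimal peak (11.6%, interval 3.89% to 25.1%), namely eef-1A.2 (rank 30), iff-2 (66), pab-2 (323), eif-2Bgamma (635) and eef-1A.1 (846). Mitochondrial ribosomal proteins had 1 of 70 (mrps-7, rank 747, 1.43%), ribosome biogenesis 1 of 29 (pro-1, rank 1052, 3.45%) and RNA polymerase I subunits 0 of 4. The interval of the cytosolic genes (8.21% to 25.3%) overlaps those of translation factors and of ribosome biogenesis (0.0873% to 17.8%) and lies above that of mitochondrial ribosomal proteins (0.0362% to 7.70%).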

How the data were processed

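The files are peak lists on ce11 from ChIP-seq of 2 replicates. Per the text deposited with the libraries, a replicate list derives from the alignment of that replicate plus 1 more file, the pooled list from both replicates, and the optimal list holds regions kept after a test of reproducibility. Not given in the sources used here: aligner, caller, threshold. The deposited signal is the authors' value for each region, and the deposited −log10 q-value, at most 3.34 in the pooled list, was not used. Ce10 lists were not used here. Regions were ranked by signal within a list, and summits were taken from the deposited offsets. Genes and 5' ends came from Ensembl release 115 (WBcel235) and bases from the RefSeq sequence of that build.

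Intervals are exact. Named genes were the members with an optimal peak, the next 6 by rank, members within rank 1115 in a replicate list alone, shared promoters, members with no region, ribosomal proteins under other names and bound genes of comparison lists. Genes named outside this rule were rps-13, which is marked in the text, and the paralogs, rpl-5, rpl-36, rps-14 and rps-10. The members and lists were chosen with earlier results of these data known, and hexamers after the data were seen. Biological replicates are labelled as such, and nothing further says how they were grown. Code was tested on simulated data. Python 3.11.15, numpy 2.4.6, pandas 2.3.3, scipy 1.17.1 and matplotlib 3.10.9 were used. Alternatives covered the window, the assignment to genes, the threshold, the replicates and the motif window.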

Additional observations from a re-analysis of the deposited data

How the results depend on the processing

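Under other settings the number of members with an optimal peak was between 9 and 12, except for the count of 13 given last and with the stronger 557 of the optimal peaks, where it was 5 (3 of the large and 2 of the small subunit), beside 1.57% of all genes. The share of all genes moved with the setting. With 500 bp upstream to 100 bp downstream, 11 members stood beside 2.27% of all genes. With 2000 bp upstream to 500 bp downstream, 12 stood beside 4.51%. With any overlap, 12 stood beside 3.50%. With only the single nearest 5' end counted the number of members was 9, beside 4.49% of all genes. Of these, 8 were among the 12, and rps-28 was added. Leaving out a replicate gave 11 each time, of which 8 (replicate 2 alone) and 10 (replicate 1 alone) were among the 12, with 6 large and 5 small subunit genes. Members with any candidate region numbered 54 to 67 (56 and 67 without a replicate). The share of all genes with one was 40.5% in replicate 2 alone and 40.2% in replicate 1 alone. For the other settings that share was not counted. The median distance upstream was 306 bp from the start codon, 281.5 bp with 500 bp upstream to 100 bp downstream and 311 bp with 2000 bp upstream to 500 bp downstream, and ranged from 290.5 to 294 bp without a replicate. The rank correlation was 0.594 and 0.609 with these windows. The share of member regions with GAGAGA was 5.19% within 25 bp and 23.4% within 100 bp of the summit, beside 10 of 77 within 50 bp, and that with CACGTG was 1.30% and 3.90%. Counting members within rank 1115 of both replicates as well, chosen after seeing the data, gave 13. No paired analysis was possible because there was 1 group. Depth, which the lists do not give, limits what a missing region means: it was not listed at this depth, which does not show that MDL-1 is absent there.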
